A study of Mus musculus with 4 samples.

Results

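The region described here is a stretch of 1.1 Mb on mouse chromosome 18, from 54.6 to 55.7 Mb of build mm9, that surrounds the gene Zfp608. It was chosen by the number of Pitx1 peaks in it, which had been counted before in the same lists. Its density and the sharing of its peaks between libraries are therefore a description and carry no test. Members are all peaks whose midpoint lies in the stretch. There were 49 of the 14753 peaks of replicate 1 and 68 of the 25027 peaks of replicate 2, and they made 35 of the 10274 replicated regions. Where peaks of the 2 lists overlapped by at least 1 bp, they were joined into 1 replicated region. Such peaks are called shared, and peaks that overlap none of the other list are called unshared.

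The peaks come from chromatin immunoprecipitation followed by sequencing (ChIP-seq) with an antibody to Pitx1. Hindlimb buds were taken from wild type embryos of the ICR strain at stage E11.5, and material from 3 ChIPs went into sequencing. The series has 2 Pitx1 ChIP libraries and 2 of input chromatin that was not precipitated; peak lists of the ChIP libraries were used here. The labels do not state whether the replicates are separate litters, and their differences may be technical. Depth is unknown, since the lists give scores and no read numbers. A peak's score is the caller's own value, and its percentile within its list, with 100 for the strongest, is used here to set peaks of different lists side by side. No control-antibody precipitation is used here, so chromatin that any antibody would pull down cannot be told apart from Pitx1 binding.

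Pitx1 is a transcription factor of the homeodomain class, present in the hindlimb bud but not in the forelimb bud, and loss of it in mice gives the hindlimb some traits of a forelimb. Such factors bind short DNA motifs in enhancers, which may lie far from the gene they act on and are often grouped around developmental genes. Zfp608 encodes a zinc finger protein that, in mouse thymocytes, is known to act on the expression of the Rag genes. By order in the RefSeq annotation of GRCm38.p6, the next protein-coding genes are Csnk1g3, a casein kinase 1 gene, at lower coordinates and Gramd3 at higher coordinates. The annotation lists no other protein-coding gene between these and Zfp608, with 18 long non-coding RNA genes and 10 pseudogenes among the other entries. In mm9 the gene lies at about 55.05 to 55.15 Mb, a span given in rounded figures with the choice of the locus. Positions were not converted between builds, and distances to the start of the gene were not computed because the table used gives no strand. All positions are mm9 on chromosome 18 and count from 1.

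Pitx1 peaks were spread over the whole stretch and were packed most closely at the end of the Zfp608 span with the higher coordinates. Within the span of 100 kb there were 10 replicated regions. The 450 kb below it held 12 regions (2.67 per 100 kb), and the 550 kb above it held 13 (2.36 per 100 kb). In bins of 100 kb, the counts from 54.6 Mb upward were 1, 4, 2, 3, 4, 11, 1, 2, 2, 3 and 2 regions. Of the 24668 autosomal bins of that size, the bin from 55.1 to 55.2 Mb was the single one with 11 (0.00405%). The mean over the bins was 0.411 regions. Some regions in the bin with 11 were under 1 kb apart, and bin counts with such regions merged are not given here. With the span widened by 10 kb at each end it held 13 regions.

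**Figure D1:**
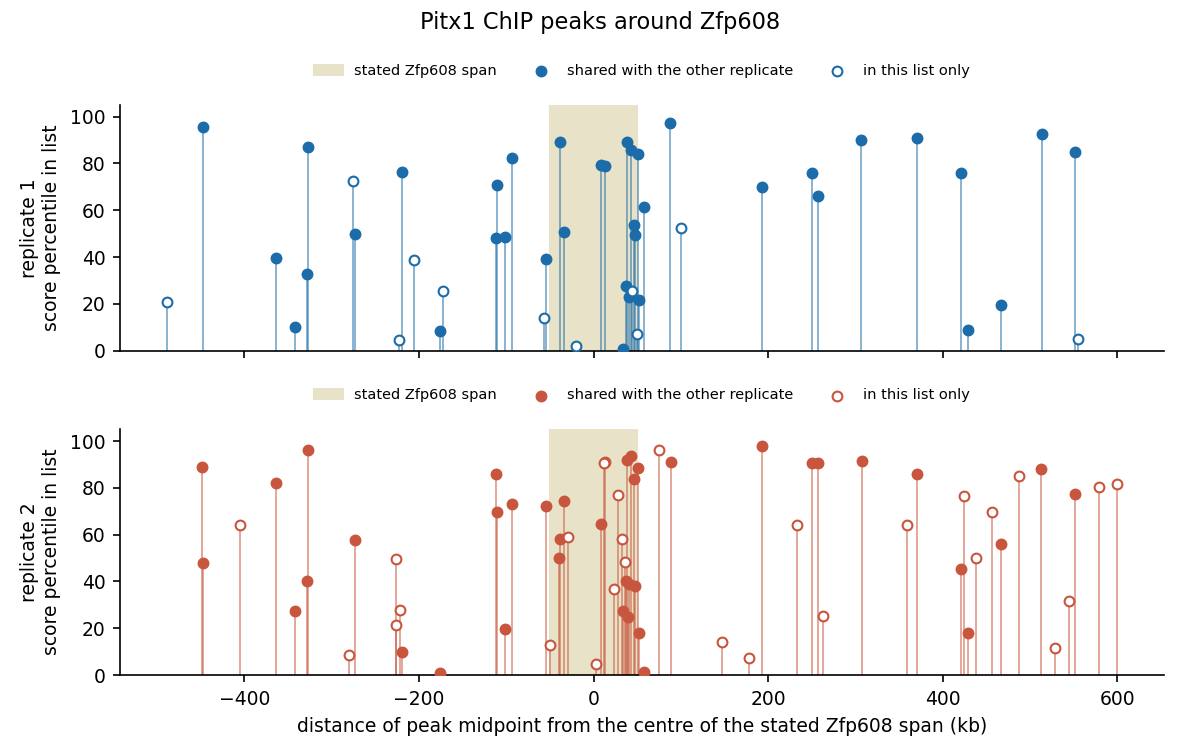
Score percentile of every peak in its own list (vertical axis, where 100 is the strongest) against the distance of its midpoint from the centre of the stated Zfp608 span (horizontal axis, kb), with replicate 1 above and replicate 2 below. Filled points are peaks shared between the replicates, open points are in that list only, and the shaded band is the span; the closest packing is at the right edge of the band.

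Spacing was uneven. Neighbouring replicated regions in the stretch had midpoints a median of 21.6 kb apart (quartiles 5.27 and 48.4 kb), against 88.7 kb over all autosomes. If the 35 regions were laid out evenly they would be 31.4 kb apart. An even layout is not a random one, and no comparison with a random layout was made. Of the 34 distances 13 were under 10 kb (38.2%), against 12.7% over the autosomes. Short distances follow from the density by which the stretch was chosen. Among the 19 densest other windows, 11 had a shorter median distance, and 15 had a lower percentage of distances under 10 kb. The shortest was 1.74 kb. The longest gap between region edges was 104 kb, from 55188963 to 55292514, and it held 1 unshared peak of replicate 1 and 2 of replicate 2. The next was 81.9 kb, from 54654043 to 54735920, with 1 unshared peak of replicate 2. Taken alone, replicate 1 peaks were a median of 11.2 kb apart and replicate 2 peaks 7.71 kb, against 65.0 and 38.1 kb over the autosomes.

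One run of regions stood at the upper end of the Zfp608 span. It had 8 replicated regions, each with its midpoint under 10 kb from the next, from 55133508 to 55157669. Runs of 3 or more regions hold 5.98% of all replicated regions, and this run holds 8 of the 35 in the stretch (22.9%). It is the only run in the stretch and the only one with 8 regions among the 187 runs of the genome. Its regions covered 47.5% of its 24.2 kb, with gaps between edges from 68 to 4143 bp. The count of 8 takes regions under 1 kb apart as separate, and run sizes with such regions merged are not given here. Each list had 12 peaks in the run, of which 10 were shared in replicate 1 and 11 in replicate 2.

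The peaks of the run were of mixed strength in both libraries. The median percentile of the run's peaks was 38.5 in replicate 1 and 39.4 in replicate 2, so most were weaker than the middle of their list. The region with the lowest sum of ranks in both lists, from 55137822 to 55140322, joined 2 peaks of replicate 1 and 3 of replicate 2, with best scores of 210.1 (percentile 89.3) and 316 (91.8). The region from 55142739 to 55143631 scored 179.95 (85.7) in replicate 1 and 373 (93.8) in replicate 2, where it was the strongest of the run, and the one from 55149852 to 55152776 scored 167 (84.1) and 252 (88.3). At the other end, the region from 55133508 to 55134311 was among the weakest of replicate 1, at percentile 0.576, and at 27.4 in replicate 2. The last region, from 55156920 to 55157669, was at 61.4 in replicate 1 and at 1.47 in replicate 2. Both ends of the run thus rest on a peak close to the lowest score that was listed in one of the libraries.

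**Figure D2:**
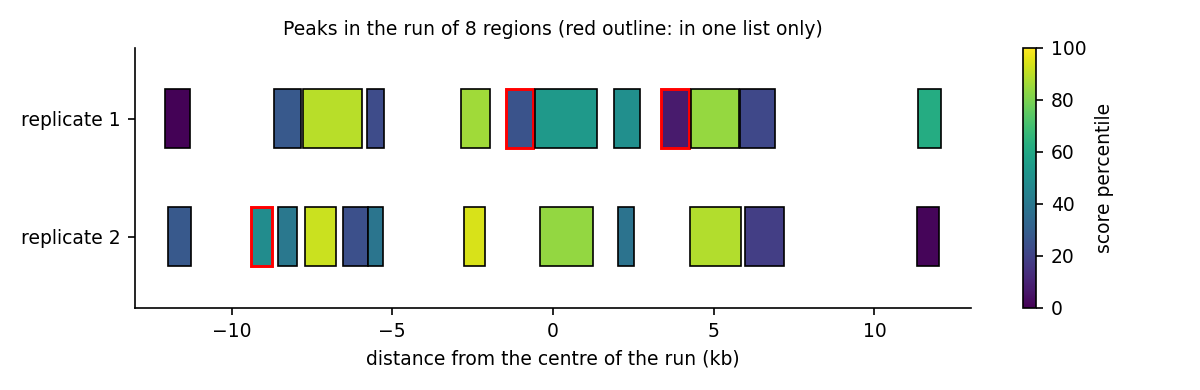
Peaks of the run of 8 regions, drawn to scale against the distance from the centre of the run (horizontal axis, kb), with replicate 1 above replicate 2. Colour gives the score percentile in the peak's own list and a red outline marks a peak in that list only (2 in replicate 1 and 1 in replicate 2); strong and weak peaks lie side by side in both lists.

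Peaks of the stretch ranged from weak to strong, and more lay in the highest quartile of each list than in any other. None was in the best 1% of its list, which was also so in 5 of the 19 densest other windows that do not overlap. The median percentile of its peaks was 50.8 in replicate 1 and 58.6 in replicate 2, where the whole list is at 50 by construction. By score quartile of the list, from weakest to strongest, replicate 1 had 13, 11, 8 and 17 peaks and replicate 2 had 14, 16, 14 and 24. The highest quartile thus held 34.7% of the stretch's peaks in replicate 1 and 35.3% in replicate 2. The best rank was 435 of 14753 in replicate 1 (within the best 2.95%) and 499 of 25027 in replicate 2 (1.99%), in different regions. Of the 35 replicated regions, 12 (34.3%) were in the highest quartile of both lists, against 27.5% of all replicated regions. This percentage was not particular to the stretch. Among the 19 densest other windows it had a median of 32.1% and ran from 20.8 to 56.2%, and it was lower than here in 11.

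The 10 strongest regions, by the sum of their ranks in both lists, lay on both sides of Zfp608 as well as in it. The first was from 55187036 to 55188963, above the gene, where replicate 1 scored 386 and replicate 2 scored 303 (percentiles 97.1 and 91.2). It was at place 1002 among all 10274 replicated regions. The second was below the gene, from 54772551 to 54774060, with scores of 191 and 471 (87.2 and 96.0). The third, from 54651889 to 54654043, was also below it and scored 329.7 and 261 (95.6 and 88.9). In it 1 wide peak of replicate 1 met 2 peaks of replicate 2. The fourth was from 55405852 to 55407060, with scores of 221 and 309 (90.2 and 91.5). The fifth, the sixth and the last of the 10 were the regions of the run at 55137822, 55142739 and 55149852. The seventh was from 55613111 to 55613905, with 259 and 249 (92.7 and 88.1), and the eighth from 55469397 to 55470291, with 232 and 221 (91.1 and 85.8). The ninth, from 55292514 to 55294217, had the highest replicate 2 score of the stretch, 644 (percentile 98.0), but 114 in replicate 1 (70.0). These 10 regions thus lie from the lower to the upper part of the stretch, and 3 of them are in the run. Replicate 2 has the longer list, so its ranks weigh more in the sum. An order by percentiles can differ from this one.

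Regions above the gene had higher median score percentiles than those below it in both libraries. By replicate 1 their median percentile was 76.1 and by replicate 2 it was 88.1, against 49.1 and 64.8 below the gene. Regions within the span were at 66.4 and 69.4. Of the 12 regions in the highest quartile of both lists, 7 were above the span, 3 within it and 2 below. No test was run between the segments, since their peaks come from the same 2 libraries.

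The libraries ranked the regions alike in broad terms. Across the 30 regions made of 1 peak of each list, Spearman's rho between the scores was 0.690, against 0.555 across all 9891 such regions of the genome. The points share their 2 libraries and are a description. The percentiles of a region differed by a median of 12.4 points in the stretch and 15.8 points in the genome. They were over 50 points apart in 2 of the 35 regions (5.71%), against 10.7% of all regions. One of these, from 54881075 to 54881793, was at 76.2 in replicate 1 and 9.62 in replicate 2. The other is the last region of the run. Midpoints of paired peaks differed by a median of 56.0 bp in the stretch and 58.0 bp in the genome.

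**Figure D3:**
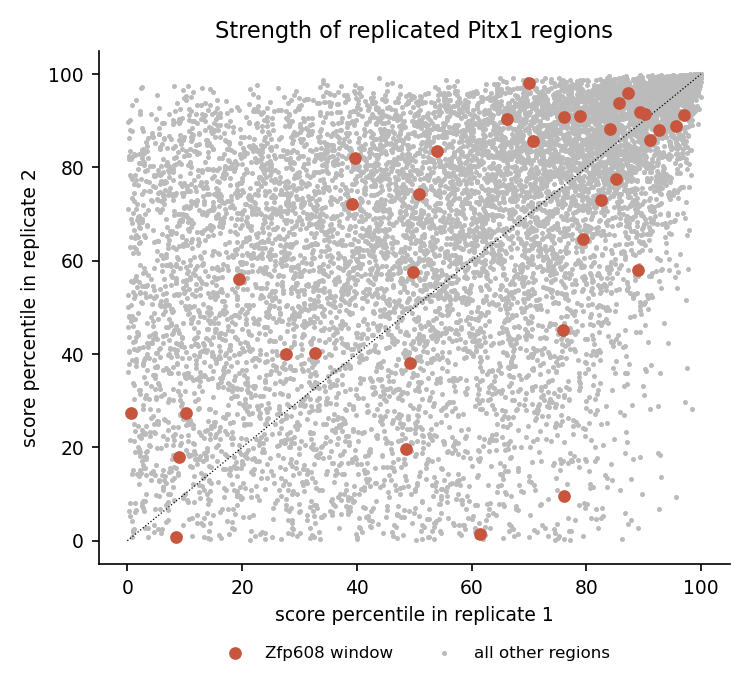
Score percentile of each replicated region in replicate 1 (horizontal axis) and in replicate 2 (vertical axis), with the 35 regions of the Zfp608 stretch in red over all other regions in grey; the dotted line marks equal percentiles. The red points span the range of both axes, and 12 are above 75 on both.

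Sharing was higher in the stretch than in the whole list, most of all for weak peaks of replicate 2. High sharing was not particular to the stretch. Among the 19 densest other windows, only 4 had a lower shared percentage in replicate 1 and 5 in replicate 2. Their median shares were 82.5% and 62.8%. In replicate 1, 38 of 49 peaks were shared (77.6%), against 69.8% of the list. In replicate 2, 41 of 68 were shared (60.3%), against 42.6% of the list. These shares are a description with no error, since peaks of one locus and library are not replicates. Strong peaks are shared more often, so the share of the whole list in each score decile was weighted by the deciles of the stretch's peaks. This gave 71.0% in replicate 1 and 48.7% in replicate 2, each below the share seen. In the lowest quartile of replicate 2, 7 of 14 peaks were shared (50%), against 17.6% of that quartile in the list. In its highest quartile 17 of 24 were shared (70.8%), against 82.0%. All 17 replicate 1 peaks of the highest quartile were shared, against 96.2%. Peaks covered 4.59% of the stretch in replicate 1 and 4.16% in replicate 2. When midpoints within 250 bp were asked for in place of overlap, 65.3% of replicate 1 peaks and 47.1% of replicate 2 peaks in the stretch were shared. Shares of the whole list under that rule are not given here, so these percentages cannot be set against the list shares by overlap.

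**Figure D4:**
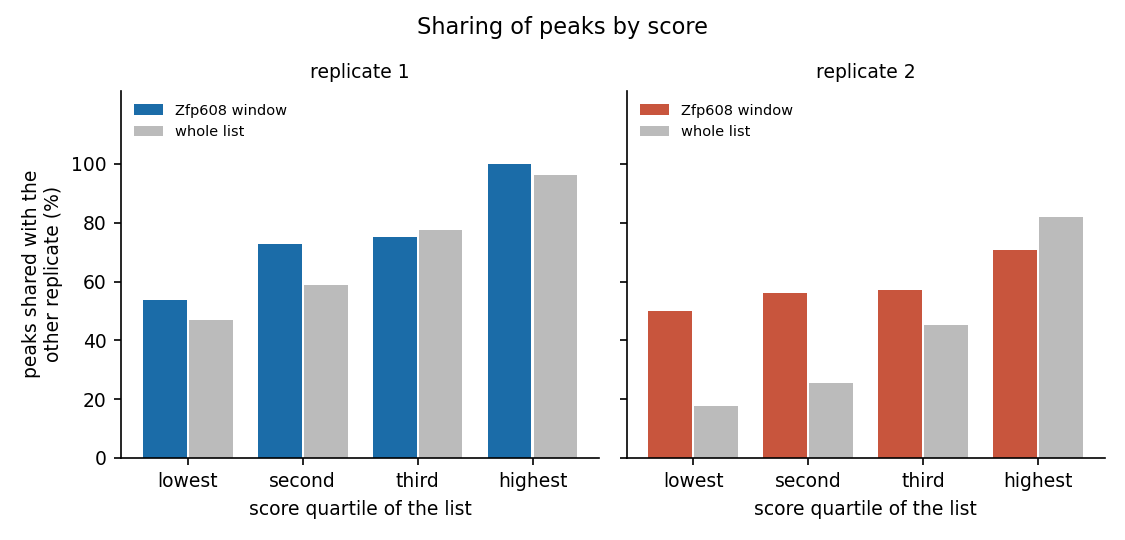
Percentage of peaks shared with the other replicate (vertical axis, from 0) in each quartile of the list by score (horizontal axis), for the Zfp608 stretch (coloured) and the whole list (grey), in replicate 1 on the left and replicate 2 on the right. In the lowest quartile of replicate 2 the share was 50% in the stretch and 17.6% in the list.

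The unshared peaks were 11 in replicate 1 and 27 in replicate 2. Those of replicate 1 were weak, at a median percentile of 20.9, while those of replicate 2 were at 50. Unshared peaks of the whole lists were at 28.8 in replicate 1 and 35.3 in replicate 2. The strongest in replicate 1, from 54823324 to 54824362, scored 120.5 (percentile 72.6) and lay 2.80 kb from any replicate 2 peak. The strongest in replicate 2, from 55174760 to 55175762, scored 480.2 (96.2) and was 11.3 kb from the nearest replicate 1 peak. It was the second strongest replicate 2 peak of the stretch. The next, from 55111043 to 55111957, scored 294 (90.7) and missed the nearest replicate 1 peak by 70 bp; this peak was named after its values were seen. Within 1 kb of a peak of the other list lay 3 of the 11 unshared peaks of replicate 1 and 4 of the 27 of replicate 2, where the genome has 6.56% and 4.79%. The denser stretch has more peaks to be near to, so nothing is read from this. The peak just inside the lower edge of the stretch starts at 54611253 in replicate 1 (percentile 20.9, unshared), and the one just outside it starts at 54565936 in replicate 1 (27.4, shared), where the overlapping replicate 2 peak is at 88.8. The peak just inside the upper edge starts at 55699021 in replicate 2 (81.7, unshared), and the one just outside it starts at 55706969 in replicate 2 (23.9, shared), where the overlapping replicate 1 peak is at 48.8.

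Peaks in the stretch were wide for their strength, by a larger margin in replicate 2 than in replicate 1. Widths in the other dense windows are not given here, so this is not shown to be particular to the stretch. Width was not used directly to choose the locus, but a wider peak overlaps another more easily, and its part in the sharing was not tested. Median width was 579 bp in replicate 2 and 849 bp in replicate 1, against 455 and 796 bp in the whole lists. In replicate 2, 53 of 68 peaks (77.9%) were wider than the median of the list, where the score deciles of these peaks would give 56.0%. In replicate 1, 29 of 49 (59.2%) were, where the deciles would give 51.2%. More than 1 replicate 2 peak fell in 5 of the 35 regions (14.3%), against 3.59% of all regions. No test was run, since peaks of one locus and library are not replicates.

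Set against autosomal windows of the same size, the stretch was among the densest but not first. Windows were slid in steps of 100 kb, and those that meet the stretch were left out. Neighbouring windows overlap, so a count of windows is not a count of separate loci. The other 24455 windows held a median of 3 replicated regions, so the 35 here were 11.7 times that, and 15.2% held 0. Only 2 windows held at least 35 (0.00818%), and these overlap each other on chromosome 2, with 36 from 74.7 to 75.8 Mb and 37 from 74.8 to 75.9 Mb. By replicate 1 peaks alone, 0 windows (0%) held as many as the 49 here, and the highest held 44. By replicate 2 peaks alone, 3 windows (0.0123%) held at least 68, and the highest held 69. The order depends on where a window is placed and how long it is. In steps of 10 kb, the best placed window of 1100 kb over the gene, from 54.52 to 55.62 Mb, held 38 regions, against at most 37 elsewhere. At 200 kb the locus had 16 and no place elsewhere more than 15. At 500 kb it had 24, and chromosome 13 reached 28 from 60.05 to 60.55 Mb. At 2000 kb it had 59, against at most 53 elsewhere. With the best 50% of each list, the stretch held 20 regions and 20 windows held at least as many. With regions under 1 kb apart merged, the stretch held 32 regions and 5 windows held at least as many. Best placed windows with such regions merged are not given here. The locus is thus the densest at some window sizes and not at others, and its lead was narrow at 200 kb (16 against 15) and 1100 kb (38 against 37).

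**Figure D5:**
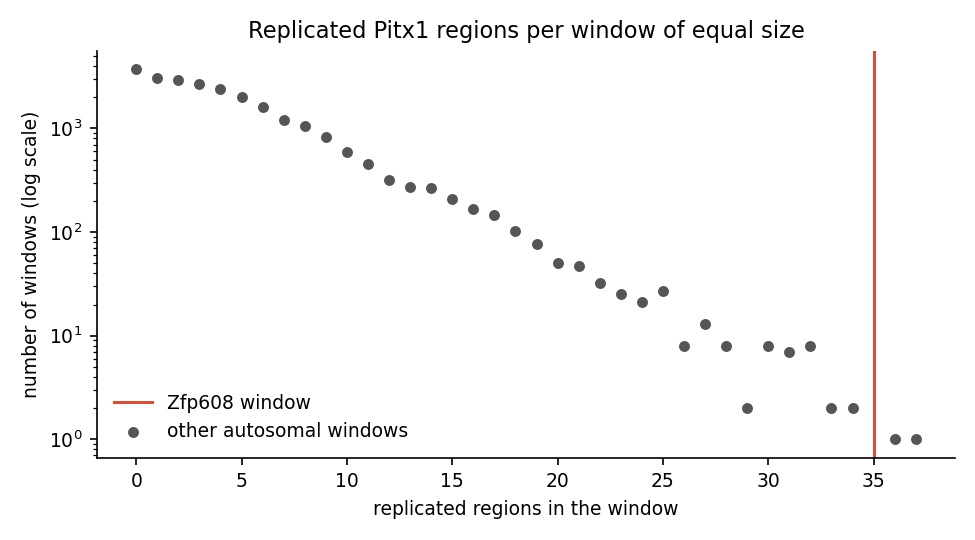
Number of autosomal windows of 1.1 Mb (vertical axis, log scale) that hold a given number of replicated Pitx1 regions (horizontal axis). The red line marks the 35 regions of the Zfp608 stretch and the points are windows that do not meet it; numbers held by no window have no point, and the 2 points to the right of the line are both on chromosome 2.

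Compared with the 3 densest other windows that do not overlap, the Zfp608 stretch had more peaks in each list, and a lower share of its replicate 2 peaks was shared. The others were on chromosome 2 from 74.8 to 75.9 Mb (37 regions), chromosome 10 from 119.6 to 120.7 Mb (33) and chromosome 3 from 66.1 to 67.2 Mb (33). The stretch had 49 replicate 1 peaks against 44, 44 and 40, and 68 replicate 2 peaks against 59, 57 and 47. Its shared percentage in replicate 2 was 60.3%, against 69.5, 64.9 and 70.2%. In replicate 1 its shared percentage was 77.6%, against 84.1, 75 and 82.5%, so the chromosome 10 window was below it. Its median percentile was 50.8 in replicate 1, against 61.1, 55.9 and 58.9, and 58.6 in replicate 2, against 68.9, 60.6 and 73.1. The strongest region of the chromosome 3 window was at place 6 among all replicated regions, while the strongest here was at place 1002. Among the 19 densest other windows, with 24 to 37 regions each, the strongest region was stronger than that of the Zfp608 stretch in 19. The median percentile was lower than here in 2 of the 19 windows in replicate 1 and in 5 in replicate 2. These windows were picked by their counts, and no test was run on the differences.

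The authors also deposited a list of positions of 1 bp with no score, made by steps that the labels do not describe. It had 41 positions in the stretch, of 10625 in all. Each lay in a different shared replicate 2 peak and also inside a replicate 1 peak. Thus 41 of the 68 replicate 2 peaks of the stretch held one (60.3%), against 42.5% of all replicate 2 peaks, and these figures follow the sharing. All 41 shared replicate 2 peaks of the stretch held a position, as did 99.7% of the shared peaks of the list. None of the 27 unshared ones did, and in the whole list 0% of unshared replicate 2 peaks did. Their median distance from the middle of the peak was 58.5 bp in replicate 2 and 108 bp in replicate 1. No replicated region of the stretch lacked a position, and 5 held more than 1.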

How the data were processed

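Pitx1 ChIP-seq peaks were read from the deposited list of each ChIP library. Build mm9 is named per the submitters' processing notes, which also list MACS 1.4.2, Bowtie 0.12.8, bedtools 2.16.2 and CASAVA 1.7 and 1.8.2, without their settings or the use made of the input. Each list numbers its MACS peaks from the first, so the lists were called separately. The deposited score is the peak caller's value per peak, used only as a rank or percentile within its list. The other deposited list holds positions of 1 bp, and the authors' way of making it is not given.

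Overlap of at least 1 bp, regions, distances between midpoints and counts per window were computed with Python 3.11.15, numpy 2.4.6, pandas 2.3.3 and scipy 1.17.1 and checked on simulated lists; matplotlib 3.10.9 drew the plots. Windows ran over 19 autosomes up to the last peak, with no correction for sequence on which reads cannot be placed. The locus, and the quantities described, were chosen with earlier results of these data known. Named regions were those with the 10 lowest rank sums, the strongest unshared peak of each list, the largest run, the peaks at the edges and the 3 densest other windows. Windows of other sizes were added after the data were seen. Alternatives were stricter score limits, equal list lengths, other definitions of sharing, merging of regions under 1 kb apart and each replicate alone. Depth is unknown because only scores were available.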

Additional observations from a re-analysis of the deposited data

How the results depend on the processing

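No paired analysis was possible because the results come from no test: ChIP and input libraries share replicate numbers, but the values describe the ChIP lists and no comparison with input was made. Of 58 alternative values, 25 stayed within a set limit of the reported ones and 33 did not. The limit was 1.5 times for a count, the 95% Wilson interval for a share, and the SD between the replicates for a median or ratio. The Wilson interval counts peaks as independent, which peaks of one locus and library are not. It served only as a set limit and is not an error of the shares. The stretch held 20 replicated regions in the best 50% of each list and 12 in the best 25%, which hold fewer peaks, and between 25 and 32 in the other alternatives that use both lists. With each replicate left out in turn it held 49 to 68 peaks, 7.71 to 11.2 kb apart, at 7.56 to 9.80 times the median window, and 0 to 3 windows held as many. The shared percentage of replicate 1 peaks was 55.1% with equal numbers of best peaks, which shortens the replicate 2 list. That of replicate 2 peaks was 47.1% by midpoints within 250 bp and 47.1% by reciprocal overlap of 50%. For these settings no share of the whole list is given, so they do not show whether sharing stayed above that of the list. Median percentiles were 68.1 and 69.6 in replicates 1 and 2 for shared peaks only, and 79.4 and 81.8 in the best 50% of the list, as leaving out weak peaks must raise them. The median distance between regions was 37.4 kb in the best 50%, 56.7 kb in the best 25%, 37.9 kb with equal numbers and 30.7 kb with regions under 1 kb apart merged. The ratio to the median window was 10 in the best 50%, 8.33 with equal numbers and 8.75 over windows with at least 1 peak. Windows with at least as many regions, 2 as reported, numbered 20 in the best 50%, 32 in the best 25%, 41 with equal numbers, 5 after merging, 1 laid end to end, and 0 by midpoints or by reciprocal overlap. For best placed windows, a choice made after the data were seen, they numbered 0 at 200, 1100 and 2000 kb and 14 at 500 kb. Except where laid end to end, the windows overlap, so these are not counts of separate loci. Unknown depth limits any statement on unshared peaks.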
